A study of Mus musculus with 6 samples.

Results

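The Notch receptors Notch1, Notch2, Notch3 and Notch4, their ligands Jag1, Jag2 and Dll4, and the target genes Hes1, Hey1 and Heyl were described in RNA sequencing of 6 tumours grown under the skin of Kunming mice from the mouse glioblastoma line G422. These 10 genes were found by symbol among the 54532 Ensembl gene IDs of the count table, and all 10 had reads and passed the filter on low counts that left 15203 genes for testing. Tumour cells had been infected with lentivirus and carried a construct labelled shNgb (3 tumours), a hairpin named for neuroglobin (Ngb), or the vector control shVec (3 tumours), and every sample was labelled untreated. The series title speaks of Ngb knockdown and the design text of cells given Ngb, and shNgb is used below as the label gives it, whichever was done. The labels do not say whether each tumour came from its own mouse, whether the line was 1 clone, or how old the mice were, so tests measure the spread between these tumours.

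Notch signalling passes between touching cells. A Jagged or Delta-like ligand on 1 cell pulls on a Notch receptor of its neighbour, ADAM proteases and gamma-secretase cut the receptor, and the freed intracellular part joins the DNA-binding protein RBPJ and Mastermind coactivators to switch on genes such as Hes1, Hey1 and Heyl, which encode bHLH repressors. In gliomas the pathway is known for its part in stem-like tumour cells and in the vessels, where Dll4 and Notch4 belong to endothelial cells and Notch3 and Heyl to pericytes and smooth muscle.

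The libraries held 19630319 to 25620667 reads. Ngb had 13 to 28 reads in shVec and 11 to 19 in shNgb, with overlap of the groups, so the reads do not settle the label. Of the 12 glial and neural markers, Olig2 and Aqp4 had no reads in any library and Gfap averaged 0.117 CPM (counts relative to library size, with TMM factors), while Sox2, a neural stem cell factor, averaged 17.9 CPM. Nes (nestin), a marker of neural stem and glioma cells, stood at 477, 545 and 496 CPM in shVec and lower in every shNgb tumour, at 439, 383 and 420 CPM (log2 fold change -0.29, SE 0.08; edgeR unadjusted p = 0.0065). Of the 5 tested markers of this list, 2 had a positive and 3 a negative log2 fold change (median -0.11). The groups did not overlap in 2 of the 5, both with shNgb below, against 3.43% of all tested genes. The part of Nes in the Notch values was not tested. Reads of host and tumour cells are mixed in bulk tissue, and fewer cells of a type cannot be told apart from less RNA per cell. No gene of the 15203 was called (0% at an adjusted p under 0.05, edgeR quasi-likelihood test, Benjamini-Hochberg), and 0 of the 10 Notch genes were. An unadjusted p under 0.05 was reached by 2.58% of all tested genes and by 0 of the 10. All values below are thus levels and differences that did not pass the test. The adjusted p was 0.9997 for each of the 10.

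On the per-length scale of the deposited FPKM values, the Jagged ligands led the group, followed by Hes1 and Notch2. Mean levels over the 6 tumours were 23.9 FPKM for Jag1, 17.5 for Jag2, 12.4 for Hes1, 8.03 for Notch2, 6.66 for Dll4, 2.57 for Notch1, 1.29 for Notch4, 0.607 for Heyl, 0.487 for Hey1 and 0.478 for Notch3. Neighbours in this order overlapped in their 6 values from Jag1 down to Dll4 and again from Heyl down to Notch3. The ranges were apart between Dll4 (lowest 6.01 FPKM) and Notch1 (highest 3.18), between Notch1 (lowest 2.05) and Notch4 (highest 1.65), and between Notch4 (lowest 0.936) and Heyl (highest 0.906). Within single libraries, Notch2 stood above Dll4 in 6 of 6, Jag1 above Jag2 in 5 of 6, and Hey1 above Notch3 in 2 of 6. For scale, the endothelial markers Pecam1 and Cdh5 averaged 3.25 and 3.92 FPKM, and Rbpj 8.03 FPKM.

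**Figure D1:**
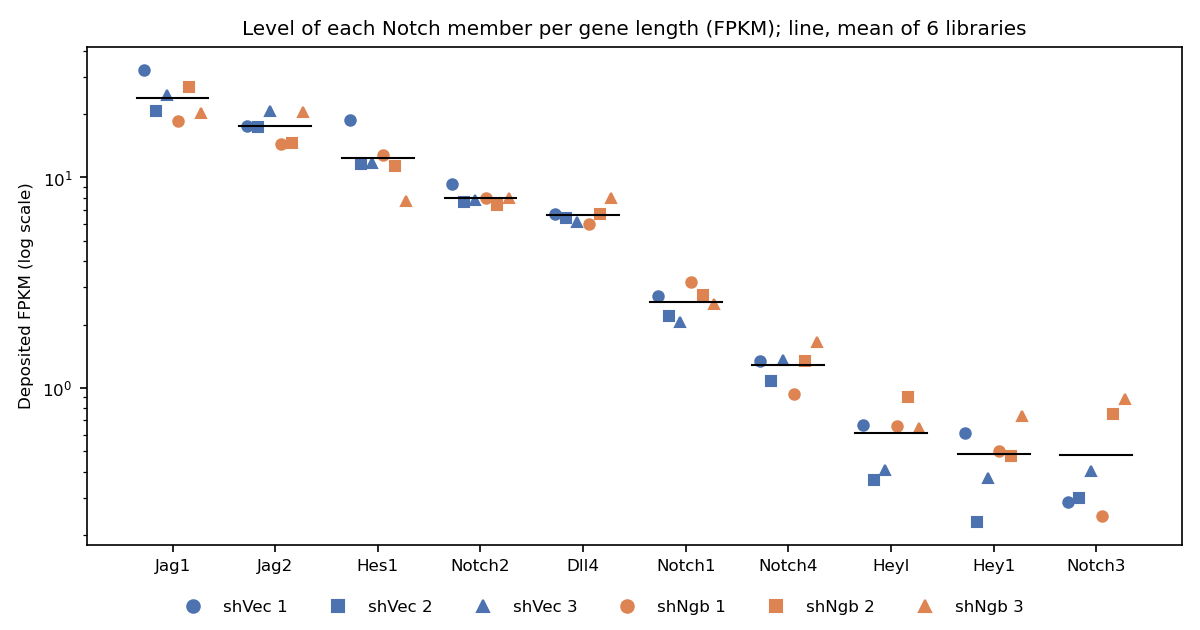
Deposited FPKM (log axis) of the 10 Notch genes in each library, in order of the mean over 6 libraries (line), with blue for shVec, orange for shNgb and the marker shape for the replicate number. Jag1, Jag2 and Hes1 stand at the top, and Heyl, Hey1 and Notch3 lie under 1 FPKM in every library.

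The make-up of the receptor pool was worked out after the levels were known, as each gene's percentage of the summed FPKM of its role. Notch2 held most of the receptor sum in every tumour, with 68.1%, 68.1% and 67.2% in shVec and 64.7%, 60.3% and 61.5% in shNgb. Its share was lower in each shNgb tumour than in each shVec tumour, while its own level overlapped between the groups. Notch1 held 19.0% ± 1.26 in shVec and 22.5% ± 3.30 in shNgb (SD, n = 3 each), and the values overlapped. Among the ligands Jag1 held 50.5% ± 5.89 and 48.4% ± 7.05, with overlap. Among the target genes Hes1 held 93.6%, 95.1% and 93.8% in shVec and 91.7%, 89.2% and 84.9% in shNgb, Heyl 3.32%, 2.97% and 3.25% against 4.70%, 7.11% and 7.07%, and Hey1 3.05%, 1.89% and 2.97% against 3.58%, 3.71% and 8.02%. The 3 shNgb tumours had a lower Hes1 share and higher Heyl and Hey1 shares than any shVec tumour. Shares of the other 6 genes overlapped. Shares of 1 role sum to 100%, so they are not separate observations, and no test was made on them. How often such shares stand apart in other genes was not worked out. The CPM levels of Notch2, Hes1, Hey1 and Heyl overlapped between the groups.

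**Figure D2:**
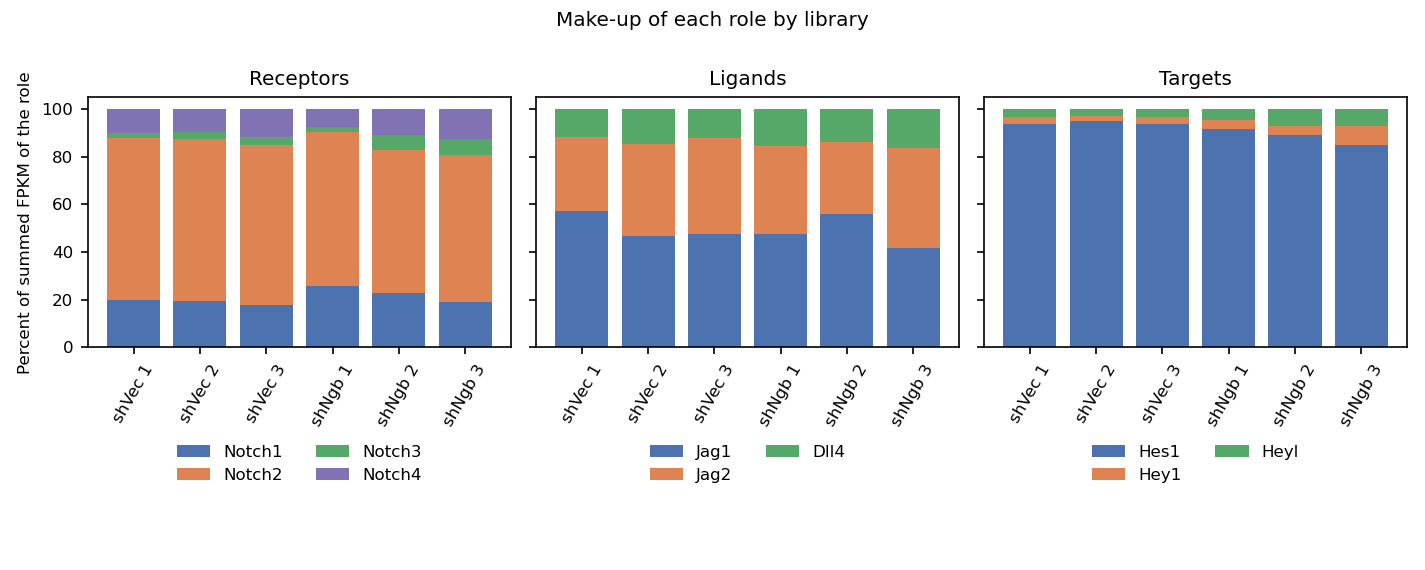
Percentage of the summed FPKM of the 4 receptors, 3 ligands and 3 target genes that each gene held, with 1 bar per library. Notch2, Jag1 with Jag2, and Hes1 filled most of each bar, and the Hes1 part was smallest in shNgb 3 at 84.9%.

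Notch2, the receptor of highest level, stood at 101, 82.4 and 84.7 CPM in shVec tumours 1, 2 and 3 and at 86.4, 80.6 and 87.4 CPM in shNgb tumours 1, 2 and 3. Apart from shVec 1, the 5 tumours lay between 80.6 and 87.4 CPM. Its log2 fold change (shNgb minus shVec) was -0.08 (SE 0.10, 95% interval -0.29 to 0.14), an interval of 0.816 to 1.10 as a fold. Without shVec replicate 1 it was 0.02. Notch2 (ENSMUSG00000027878) spans chromosome 3 from 98013527 to 98150361 on the plus strand in GENCODE M21 (build GRCm38), the annotation used here for names and positions.

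Notch1, the receptor best known as an oncogene of T cell leukaemia, stood at 39.1, 31.3 and 29.3 CPM in shVec and at 45.5, 39.8 and 36.0 CPM in shNgb. The group means were 33.2 ± 5.18 and 40.4 ± 4.77 CPM, and the groups overlapped only through shVec 1, which lay above shNgb 3. The log2 fold change was 0.28 (SE 0.13, interval -0.02 to 0.59; edgeR unadjusted p = 0.0663). Without shVec replicate 1 it was 0.41, and without shNgb replicate 1 it was 0.19. The gene (ENSMUSG00000026923; chromosome 2, 26457903 to 26516663, minus strand) shares 1068 exonic bases with 0610009E02Rik, a transcript of the opposite strand that had 12 to 28 reads. Notch1 itself had 575 to 967 reads, and whether the strand was used in counting is not known here.

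Notch3, the receptor of vascular mural cells, showed the widest spread of the 10 genes on the log2 scale. It stood at 2.32, 2.42 and 3.26 CPM in shVec and at 1.98, 6.13 and 7.17 CPM in shNgb, from 51, 48, 64, 41, 149 and 187 reads in the same order. The tumours shNgb 2 and shNgb 3 lay above all shVec tumours, and shNgb 1 was the lowest of all. The log2 fold change was 0.94 (SE 0.44, interval -0.06 to 1.94; edgeR unadjusted p = 0.0630). Without shNgb replicate 1 it was 1.32, and without shNgb replicate 3 it was 0.61. The gene (ENSMUSG00000038146) lies on chromosome 17 at 32120820 to 32166852, minus strand.

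Markers of mural cells differed in how they ran beside Notch3, and their part in its values was not tested. The summed level of the 12 mural markers was 430.1 to 502 CPM in shVec and 437, 505 and 367 CPM in shNgb 1, 2 and 3, so that shNgb 3 had the most Notch3 and the lowest mural sum. Most of this sum was Cspg4 (NG2) at a mean of 291 CPM and Pdgfrb at 96.6 CPM. Of the 12, 4 were positive and 8 negative in log2 fold change (median -0.27). Rgs5, a pericyte gene, stood at 9.25, 13.1 and 16.0 CPM in shVec and 8.25, 11.3 and 16.0 CPM in shNgb, the same order of tumours as Notch3 within each group, while its group means were 12.8 and 11.8 CPM. Acta2, smooth muscle actin, stood at 8.84, 10.99 and 9.93 CPM in shVec and 11.1, 12.9 and 14.4 CPM in shNgb. All shNgb tumours thus lay above all shVec tumours, and Acta2 was the 1 mural marker of 12 with an unadjusted p under 0.05 in edgeR (0.0498; log2 fold change 0.37, SE 0.16). Higd1b, a pericyte gene, was the 1 marker with shNgb below in all, at 0.505 and 0.258 CPM, from only 5 to 11 reads a library. Over all tested genes, 2.58% had an unadjusted p under 0.05 in edgeR. The groups stood apart with shNgb above in 3.67% of them and with shNgb below in 3.43%. Other smooth muscle genes, Tagln, Myh11 and Cnn1 averaged 0.393, 0.525 and 0.431 CPM. Unlike Acta2, Tagln had a negative sign (-0.98, SE 0.57), as had Cnn1 (-0.44, SE 0.54) and the mural marker Des (-0.99, SE 0.95). Myh11 was positive (0.23, SE 0.53), and the groups overlapped in each of these genes. The higher Acta2 was thus not shared by most of them.

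Notch4, a receptor of endothelial cells, stood at 10.9, 8.77 and 11.05 CPM in shVec and at 7.57, 10.9 and 13.4 CPM in shNgb. Both the lowest and the highest value came from shNgb tumours. Here the log2 fold change was 0.06 (SE 0.22, interval -0.44 to 0.56), and leaving out shNgb replicate 3 gave -0.15, shVec replicate 2 -0.04 and shNgb replicate 1 0.25. The gene (ENSMUSG00000015468) lies on chromosome 17 at 34564268 to 34588503, plus strand.

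**Figure D3:**
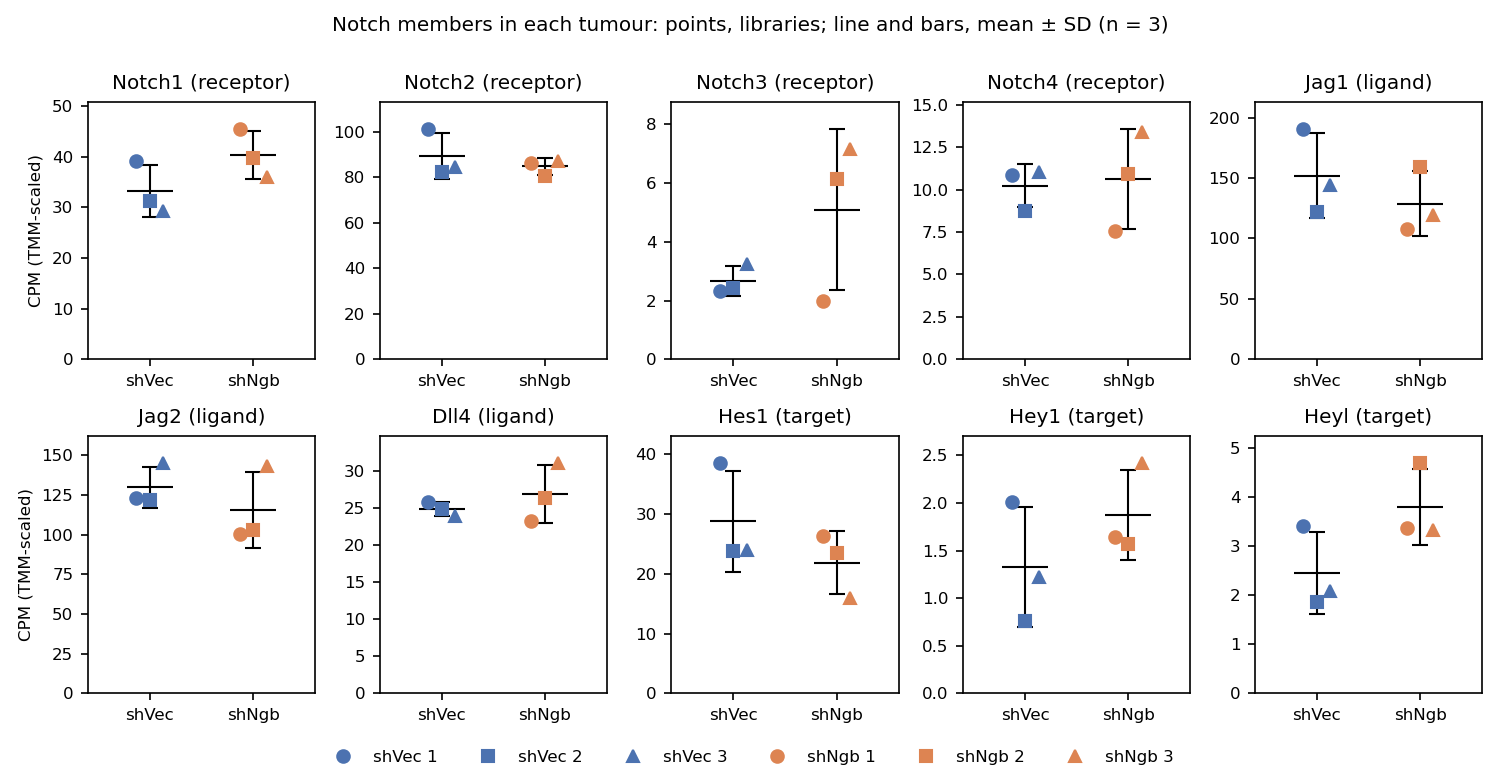
TMM-scaled CPM of the 10 Notch genes in each tumour (points, shape by replicate number), with the group mean and SD as black line and bars (n = 3 each) on axes that start at 0. The groups overlap in all 10 genes, and Notch3 shows 2 shNgb tumours at 6.13 and 7.17 CPM above the other 4 libraries.

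Jag1, the ligand of highest level, stood at 190, 122 and 144 CPM in shVec and at 108, 159 and 120 CPM in shNgb. The highest value was that of shVec 1 and the lowest that of shNgb 1, with the groups interleaved. As a log2 fold change this was -0.24 (SE 0.20, interval -0.70 to 0.23). Without shVec replicate 1 it was -0.05, and without shNgb replicate 2 it was -0.42. The gene (ENSMUSG00000027276) lies on chromosome 2 at 137081456 to 137116644, minus strand.

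Jag2, the second Jagged ligand, stood at 123, 122 and 145 CPM in shVec and at 100.3, 103 and 143 CPM in shNgb. Tumours shNgb 1 and 2 lay below all shVec tumours, and shNgb 3 lay near the top. Between the groups the log2 fold change was -0.17 (SE 0.15, interval -0.50 to 0.17). It was -0.36 without shNgb replicate 3 and -0.08 without shNgb replicate 1. The gene (ENSMUSG00000002799) lies on chromosome 12 at 112907819 to 112929776, minus strand.

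Dll4, the ligand of endothelial tip cells, was the steadiest ligand, at 25.8, 24.8 and 23.9 CPM in shVec and 23.2, 26.2 and 31.0 CPM in shNgb. In edgeR the log2 fold change was 0.11 (SE 0.12, interval -0.17 to 0.39), or a fold between 0.890 and 1.31. Without shNgb replicate 3, the highest tumour, it was -0.0077. The 15 endothelial markers summed to 252 to 274 CPM in shVec and 251 to 273 CPM in shNgb. Flt1 and Eng weighed most in this sum, with means of 84.8 and 60.1 CPM. Of the 15, 5 had a positive and 10 a negative log2 fold change (median -0.05). Of the 7 tested tip and arterial markers, 4 were positive and 3 negative, with a median of 0.01. Angpt2, a tip cell gene, was the 1 of these 7 with an unadjusted p under 0.05 in edgeR (0.0199), against 2.58% of all tested genes. It stood at 11.2 ± 1.81 CPM in shVec and 16.0 ± 2.86 in shNgb, with overlap of the groups. Among more abundant markers of this list, Efnb2 (-0.28, SE 0.13) and Apln (-0.26, SE 0.18) were negative and Unc5b was near 0 (0.01, SE 0.13). Dll4 (ENSMUSG00000027314) lies on chromosome 2 at 119325784 to 119335962, plus strand.

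Hes1, the target gene read most often as a sign of Notch activity, stood at 38.4, 23.8 and 24.0 CPM in shVec and at 26.2, 23.4 and 15.9 CPM in shNgb. The highest value was that of shVec 1, the lowest that of shNgb 3, and the other 4 tumours lay between 23.4 and 26.2 CPM. Here the log2 fold change was -0.40 (SE 0.25, interval -0.97 to 0.17; edgeR unadjusted p = 0.145). Without shVec replicate 1 it was -0.13 and without shNgb replicate 3 it was -0.22. Hes1 also answers to signals other than Notch. The gene (ENSMUSG00000022528) lies on chromosome 16 at 30064384 to 30067796, plus strand.

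Heyl, a target known from mural cells, stood at 3.42, 1.86 and 2.09 CPM in shVec and at 3.38, 4.69 and 3.33 CPM in shNgb. All shNgb tumours lay above shVec 2 and 3, while shVec 1 lay among them. As a log2 fold change this was 0.63 (SE 0.30, interval -0.06 to 1.31; edgeR unadjusted p = 0.0682). It was 0.94 without shVec replicate 1. The gene (ENSMUSG00000032744) lies on chromosome 4 at 123233556 to 123249875, plus strand.

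Hey1, a target of Notch in endothelial cells, had only 44, 15 and 24 reads in shVec and 34, 38 and 63 in shNgb. These are 2.0, 0.756 and 1.22 CPM against 1.64, 1.56 and 2.41 CPM, with shVec 1 above shNgb 1 and 2. Between the groups the log2 fold change was 0.49 (SE 0.40, interval -0.40 to 1.39), 0.21 without shVec replicate 2, 0.26 without shNgb replicate 3 and 0.92 without shVec replicate 1. At this depth the interval spans folds of 0.756 to 2.62. The gene (ENSMUSG00000040289) lies on chromosome 3 at 8663359 to 8667256, minus strand.

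Set side by side, the 3 target genes did not share a sign: Hes1 was negative and Hey1 and Heyl were positive. The receptors had 3 positive and 1 negative log2 fold change (median 0.17) and the ligands 1 positive and 2 negative (median -0.17). Over all 10 genes, 6 were positive and 4 negative (median 0.09), against 50.9% positive (median 0.0026) in all tested genes. The middle 90% of tested genes lay between -0.38 and 0.58. Outside that range were Notch3 and Heyl above and Hes1 below. Their SEs were 0.44, 0.30 and 0.25, against a median SE of 0.15 over all tested genes. Genes of like read number were not compared. Groups without overlap were seen in 3.67% of tested genes with shNgb above and in 3.43% with shNgb below, and in 0 of the 10 Notch genes.

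**Figure D4:**
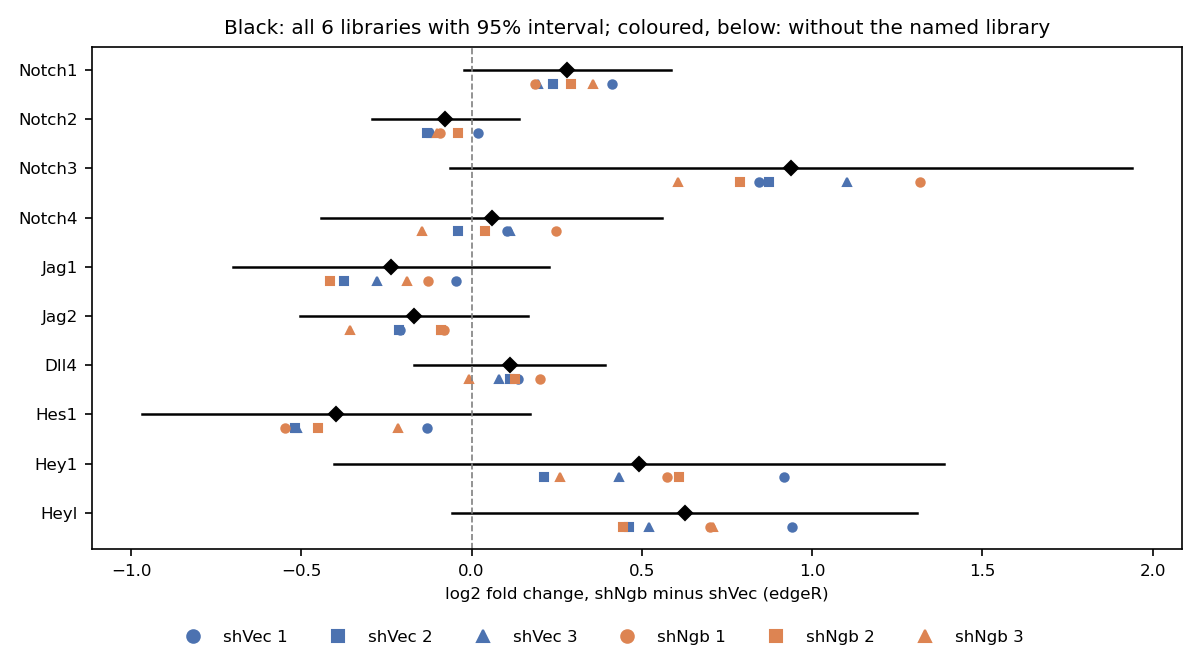
Log2 fold change (shNgb minus shVec) of each Notch gene from edgeR with all 6 libraries (black diamond, 95% interval) and, under it, without the named library (coloured). All 10 intervals include 0, and the estimate for Jag1 moves from -0.24 to -0.05 without shVec 1.

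Single tumours carried much of the spread. The library shVec 1 was the highest of all 6 for Notch2, Jag1 and Hes1, and the highest of its group for Notch1, Dll4, Hey1 and Heyl as well. The library shNgb 3 was the highest of all 6 for Notch3, Notch4, Dll4 and Hey1 and the lowest for Hes1. That tumour also had the highest sum of 12 immune markers, at 116 CPM, against 43.2 and 74.3 CPM in the other shNgb tumours and 33.4 to 67.8 CPM in shVec. All 9 tested immune markers had a positive log2 fold change (median 0.83), and the B cell marker Ms4a1 was at or near 0. Of the 9, 0 had an unadjusted p under 0.05 in edgeR, and the groups overlapped in all 9. The tumour shNgb 3 also had the lowest sum of the 12 hypoxia-response genes, 3236 CPM. The other shNgb tumours had 4626 and 3718 CPM, and shVec had 4913 to 5080 CPM. All 12 hypoxia-response genes stood lower in mean in shNgb (median log2 fold change -0.57), with 0 called and 5 at an unadjusted p under 0.05 in edgeR. Groups did not overlap in 7 of the 12, all with shNgb below. Over all tested genes these shares were 2.58% for the unadjusted p and 3.43% for shNgb below. Fibroblast markers had their lowest sum in shNgb 3 as well, 1174 CPM, against 2452 and 2060 CPM in the other shNgb tumours and 1746 to 2022 CPM in shVec. Of the 7 tested, 6 were positive (median 0.41), and the collagen genes Col1a1 (0.86, SE 0.23) and Col1a2 (0.96, SE 0.31) had unadjusted p of 0.0076 and 0.0185 in edgeR. Col3a1, the most abundant of them, stood at 605 CPM in shNgb 3 and 1345 to 1666 CPM in the other 5 tumours. The part of immune cells, fibroblasts and hypoxia in the Notch values was not tested.

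Because hypoxia-response genes stood lower in shNgb, the 250 bases before the RefSeq start (build GRCm38.p6) were searched on both strands for the core letters of the hypoxia response element, ACGTG or GCGTG, and for the RBPJ core, TGGGAA. The N-box letters CACGAG or CACAAG, bound by Hes proteins, and the TATA letters TATAAA were searched too. The motifs were chosen after the expression values had been seen, and the CpG comparison and the windows shown after the matches had been seen. Windows of 7 of the 10 genes matched by symbol and came from RefSeq. The set of windows had no entry for Hes1, Hey1 and Heyl, so the search covered receptors and ligands only and no target gene. The 3 windows shown contrast a receptor with no hypoxia core (Notch1), the receptor of widest spread (Notch3) and the vascular ligand (Dll4). They lie at chr2:26503823-26504072 (Notch1, minus strand), chr17:32166891-32167140 (Notch3, minus strand) and chr2:119325534-119325783 (Dll4, plus strand). Sequences run 5′ to 3′ along the gene, and capitals mark hypoxia core letters on either strand.
Notch1: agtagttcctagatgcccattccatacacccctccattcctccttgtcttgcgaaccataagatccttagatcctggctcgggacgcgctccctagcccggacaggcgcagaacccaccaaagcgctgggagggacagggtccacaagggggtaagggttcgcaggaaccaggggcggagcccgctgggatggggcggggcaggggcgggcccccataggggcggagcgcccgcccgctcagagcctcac
Notch3: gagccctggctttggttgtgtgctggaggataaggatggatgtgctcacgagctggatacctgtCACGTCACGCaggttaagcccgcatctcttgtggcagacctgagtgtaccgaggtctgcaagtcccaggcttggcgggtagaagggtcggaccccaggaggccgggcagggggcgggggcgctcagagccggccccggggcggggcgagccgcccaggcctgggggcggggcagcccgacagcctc
Dll4: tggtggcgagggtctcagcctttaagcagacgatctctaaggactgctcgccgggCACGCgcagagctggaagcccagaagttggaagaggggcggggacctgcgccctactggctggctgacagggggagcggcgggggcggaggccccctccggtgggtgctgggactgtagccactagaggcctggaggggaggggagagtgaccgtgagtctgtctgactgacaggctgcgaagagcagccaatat
In Notch3 the 2 matches began 186 and 181 bases before the start, and in Dll4 the match began 195 bases before it, all on the opposite strand. Notch2, Notch4, Jag1 and Jag2 also held the hypoxia core. It was thus in 6 of 7 windows, against 38.6% of all 32851 windows of that length. The Notch4 window has 4 CpG and the others at least 14, and of these 6 windows 5 held the core, against 64.2% of the 12417 windows with at least 10 CpG. The 7 windows were GC-rich, with 57.2% to 87.2% against a median of 52.4%. TGGGAA was in 0 of 7 windows and in 21.6% of all, which says only that these letters are not in these bases. The N-box letters were in the Notch1 and Notch3 windows, 2 of 7 against 18% of all windows, or 2 of 6 against 16.4% with at least 10 CpG. TATAAA was in 0 of 7, against 12.4% of all windows. Per GENCODE M21, 124 bases of the Jag1 window and all of the Jag2 window lie in exons. In the Notch4, Notch2 and Notch1 windows 27, 11 and 2 bases do. The Notch1 window lies inside the GENCODE span of the gene given above and not upstream of it.

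Log2 fold changes across the wider pathway centred near 0. Of 61 further genes in 8 role lists, 52 were tested, of which 30 were positive and 22 negative in log2 fold change (median 0.01). In edgeR 0 were called and 3 had an unadjusted p under 0.05, 2 higher and 1 lower, or 5.77% against 2.58% of all tested genes. The groups did not overlap in 4 with shNgb above (Aph1c, Kat2b, Maml2 and Snw1) and in 1 with shNgb below (Tle3), of 52, against 3.67% and 3.43% of all tested genes.

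Among the 10 proteases that cut ligands and receptors, 6 were positive and 4 negative, with a median of 0.01. Furin, the convertase that matures the receptor, had the most reads and a log2 fold change of -0.13 (SE 0.09). Adam10, a sheddase of the receptors named outside the rule, had 0.04 (SE 0.08). Aph1c, a gamma-secretase subunit, had the smallest unadjusted p (0.0115) and stood at 0.228, 0.302 and 0.204 CPM in shVec and 0.530, 0.658 and 0.728 CPM in shNgb. These are only 4 to 19 reads a library, and Aph1b is a close copy, so the split of reads between them is uncertain.

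All 5 glycosyltransferases that add sugars to the Notch EGF repeats were positive, with a median of 0.12. They ran from 0.0021 (Pofut1, SE 0.08) to 0.86 (Mfng, SE 1.04), and 0 of the 5 had an unadjusted p under 0.05 in edgeR. Lfng, a Fringe enzyme that shifts receptors towards Delta-like ligands, stood at 3.57 ± 1.06 CPM in shVec and 5.37 ± 2.05 in shNgb (log2 fold change 0.59, SE 0.33). Poglut1 had the most reads and a log2 fold change of 0.07 (SE 0.09). Mfng, named here after its values were seen, ranged from 1.65 CPM in shNgb 2 to 21.3 in shNgb 3 and was at 10.9 in shNgb 1 and 13.8 in shVec 2.

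Of the 4 ligases that drive ligand endocytosis, 2 were positive and 2 negative. Mib1 averaged 234 CPM in the vector tumours and 236 CPM in the others, and Neurl1b 0.411 and 0.739 CPM, with a log2 fold change of 0.86 (SE 0.46). Regulators of receptor turnover had 5 positive and 3 negative with a median near 0. Itch, a ubiquitin ligase, had 0.0051 (SE 0.07), and Dtx3l, a Deltex family ligase, 0.37 (SE 0.19).

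RBPJ and its coactivators had 4 positive and 5 negative log2 fold changes and a median of -0.04. Rbpj, named outside the rule because it is the factor that carries Notch to DNA, stood at 92.1, 119.9 and 121 CPM in shVec and 91.7, 114 and 79.1 CPM in shNgb, with overlap (log2 fold change -0.23, SE 0.15). Kat2b, an acetyltransferase, stood at 37.0 ± 1.61 CPM in shVec and 43.4 ± 1.79 in shNgb (0.23, SE 0.09), and Kat2a had the most reads (-0.04, SE 0.08). The 12 corepressors had 5 positive and 7 negative with a median of -0.01. Tle3, a Groucho corepressor, stood at 117 ± 9.76 CPM in shVec and 100.1 ± 4.0 in shNgb (-0.22, SE 0.08), and Ctbp1 had the most reads (0.02, SE 0.09).

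The other ligands were scarce, and the other targets ranged widely. Of Dll1, Dll3, Dlk1, Dlk2 and Dner only Dlk2 passed the filter, at 0.503 CPM in shVec and 0.861 in shNgb (0.79, SE 0.68), and Dll1 averaged 0.295 CPM. Hes5, a main Notch target of neural stem cells, averaged 0.022 CPM, Hey2 0.251 CPM, and Hes2 had no reads. Hes6 and Hes7, bHLH relatives of Hes1, averaged 16.6 and 4.30 CPM, or 9.14 and 2.36 FPKM per length, so that the Hes6 mean stood above that of Notch2 on the FPKM scale. Their log2 fold changes were -0.02 (SE 0.22) and 0.17 (SE 0.26). Nrarp, a feedback inhibitor that Notch induces, stood at 4.26 CPM in shVec and 4.94 in shNgb (0.21, SE 0.33).

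**Figure D5:**
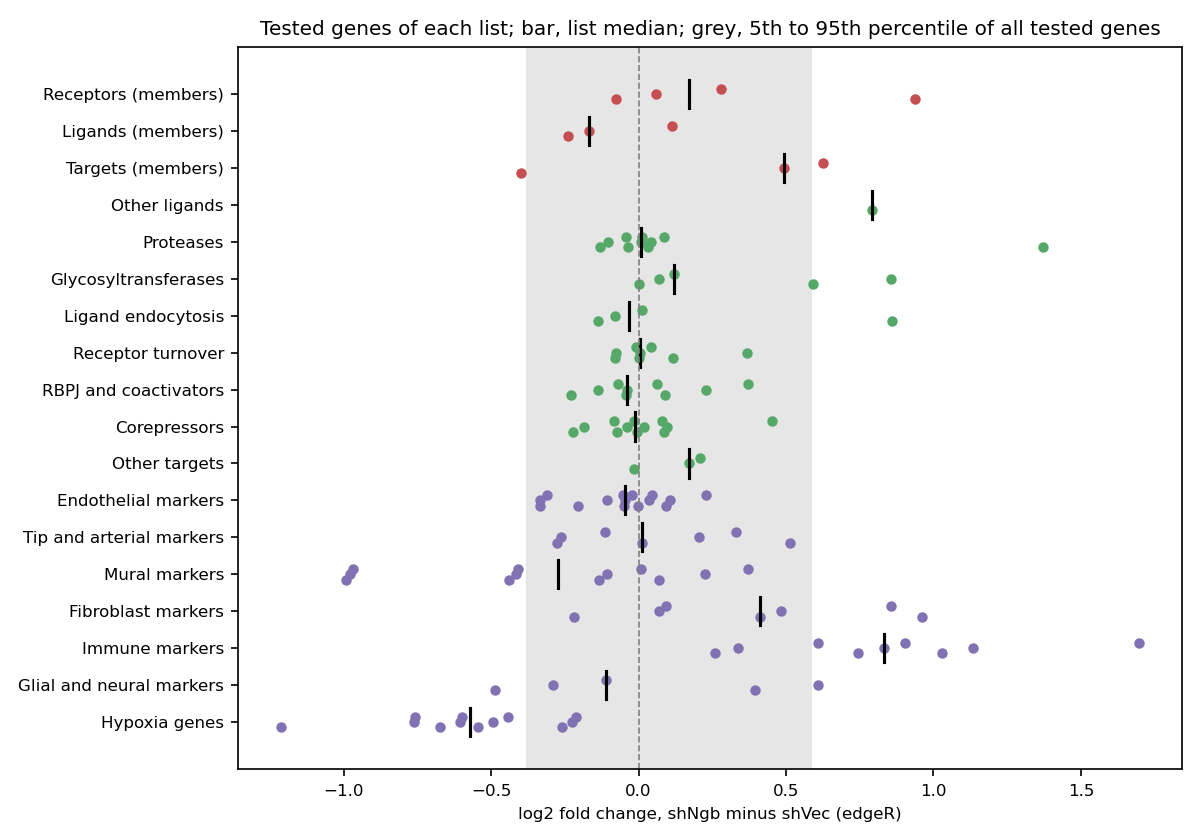
Log2 fold change (shNgb minus shVec, edgeR) of every tested gene of the Notch roles (red), other pathway lists (green) and marker lists (purple), with the list median as a bar and the 5th to 95th percentile of all tested genes in grey. Most pathway genes lie near 0, the 9 immune markers are all positive and the 12 hypoxia genes all negative.

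Genes whose levels ran most like those of the 3 most variable members were sought among genes of at least 5 CPM, over the 6 libraries. Pearson's r of log2 CPM was 0.99 with Bbs9, 0.99 with Dzip1 and 0.98 with Id1, a BMP target, for Notch3. For Hey1 it was 0.99 with Tpx2, 0.98 with A930004D18Rik and 0.98 with Kif22, and for Heyl 0.99 with Taok2, 0.99 with Gm43737 and 0.98 with Lcmt1. Such values are the best of 10571 candidates over 6 points and describe these libraries only. Bbs9 stood at 11.8, 12.5 and 13.5 CPM in shVec and 11.2, 18.8 and 18.9 CPM in shNgb, with shNgb 2 and 3 above the other 4 as in Notch3.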

How the data were processed

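RNA was sequenced from 3 shNgb and 3 shVec tumours, grouped by sample title. Per the labels' protocols, RNA was extracted with Trizol and libraries made with the Illumina TruSeq RNA kit. The submitters' processing notes list Bowtie 0.12.2 and the builds mm8 and mm10 but give them no role. How reads were counted, and on which annotation, is not given in the sources used here. Deposited by the authors were raw read counts per Ensembl gene and, per the file headers, FPKM values. FPKM served only to set levels of different genes side by side; in the 10 members its ratio to the counts was 1 gene factor times 1 library factor.

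Symbols came from GENCODE M21 (54409 of 54532 IDs) and promoter windows from RefSeq (GRCm38.p6). Counts were filtered with the default expression filter, scaled by TMM and tested with edgeR 4.0.16 (robust quasi-likelihood F-test, R 4.3.3) over all 15203 genes. Standard errors came from the F statistic and intervals are 95%. Alternatives were RLE and upper quartile scaling, DESeq2 1.42.0, limma-voom 3.58.1, 2 other filters (1 read in all; 10 reads and 1 CPM in 3 libraries), the replicate block, an adjusted p under 0.1, and each library left out. Log2 CPM used a prior count of 2. No 2 libraries of a group agreed within sampling noise (chi-square over degrees of freedom at least 11.3). The members and lists were chosen with earlier results of these data known. All 10 members are named; of each other pathway list, the genes of smallest p and most reads are named. Outside this rule, after their values were seen, Adam10, Rbpj, Mfng, Nrarp, the genes without overlap, those at or near 0, and marker genes beyond the most abundant of a list were named.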

Additional observations from a re-analysis of the deposited data

How the results depend on the processing

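No Notch gene was called under any alternative: RLE or upper quartile scaling, either other filter, DESeq2, limma-voom, the replicate block, an adjusted p under 0.1 or any library left out. The lowest adjusted p of a member was 0.458 (Notch3). Over all genes, DESeq2 called 2 higher and 3 lower, edgeR without the filter 3 lower, and the replicate block 1 lower, against 0 and 0. Deviations of same-numbered tumours from their group means had r across genes of 0.26, -0.15 and -0.10 for replicates 1, 2 and 3. Differently numbered tumours were not compared, so these values cannot say whether the numbers pair anything. In the edgeR block fit 2 of the 10, Notch1 and Hes1, had an unadjusted p under 0.05, against 426 of all 15203 genes. The median of the members in that fit was 0.07. With libraries left out in turn, the median of the members ranged from -0.055 (without shNgb replicate 3) to 0.19 (without shNgb replicate 1). The main fit gave 0.09 and the other settings 0.07 to 0.11. Of 130 refitted member values 4 changed sign, each with a library left out: Notch2 (0.019 without shVec replicate 1, range from -0.13), Notch4 (-0.04 without shVec replicate 2, -0.15 without shNgb replicate 3, range to 0.25) and Dll4 (-0.0077 without shNgb replicate 3, range to 0.20). An unadjusted p under 0.05 was reached by Notch1 in 5 alternatives, Notch3 in 3, Heyl in 2 and Hes1 and Jag2 in 1 each. The most in 1 fit was 3 of the 10, with the filter of 1 read in all, where 832 of 27834 genes reached it. Upper quartile scaling had 1 member and 404 of 15203 genes, and DESeq2 had 1 member and 477 of 27832. Without shVec 1, shNgb 1 or shNgb 3 there were 2, 1 and 2 members, among 465 of 15572, 784 of 15857 and 321 of 15510 genes. The causes were not tested. Hey1, Heyl and Notch3 had 15 to 187 reads a library, which limits their precision.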
